A study of Neurospora crassa OR74A with 26 samples.

Results

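The Neurospora crassa genes compared here are those of a strain without clr-2 and of wild type, both 4 h after transfer to crystalline cellulose. All 9733 genes of the deposited tables were taken as members, with the FPKM (mapped fragments scaled by transcript length and library depth) of their transcripts summed to the gene. They were read in 4 of the 26 libraries of the series. The clr-2 deletion strain, FGSC 15835, carries a hygromycin resistance cassette in place of the open reading frame of NCU08042. The sample title calls this gene cdr2. The deletion strain gave 1 library on Avicel at 4 h, and wild type, FGSC 2489, gave 3. Both were grown for 16 h in sucrose medium, washed, and moved to Avicel PH101 as the carbon source. A clr-1 deletion strain, FGSC 11029, in which NCU07705 is replaced in the same way, gave 1 library on Avicel at 4 h, and wild type gave 3 each on sucrose and without a carbon source at 4 h. Each deletion strain also gave 1 library on Avicel at 1 h and 1 each on sucrose at 1 h and 4 h. At 1 h, wild type gave 3 each on Avicel and sucrose. Later comparisons by medium and time use these. No group is known to be more than 1 isolate of its strain. The labels do not state whether libraries of a group came from separate cultures, so p-values measure only the spread between these libraries.

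CLR-1 and CLR-2 are zinc binuclear cluster transcription factors that N. crassa needs to grow on cellulose. In N. crassa, CLR-1 is needed for the induction of clr-2, and CLR-2 in turn for that of most cellulase genes, while xylan breakdown depends on XLR-1. The enzymes are secreted: endoglucanases cut within the cellulose chain, cellobiohydrolases release cellobiose from its ends, polysaccharide monooxygenases oxidise it, and β-glucosidases and cellodextrin transporters deal with the short sugars.

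The clr-2 deletion library on Avicel at 4 h held 36038944 reads of 50 bases, recovered from the deposited coverage. Wild-type replicates 2 and 3 held 46474232 and 44019447 reads of 50 bases, and replicate 1 held 11790905 reads of 40 bases. Wild-type replicate 1 stood apart: over 8629 tested genes its Pearson r of log2 values was 0.914 with replicate 2 and 0.901 with replicate 3, against 0.990 between replicates 2 and 3. In the 78 genes described below as lower, replicate 1 was the highest wild-type library in 56 and the lowest in 14. The deletion library had r of 0.863, 0.949 and 0.934 with wild-type replicates 1 to 3. Almost all transcripts above 0 held 11 reads or more, and 1075 of 9907 transcripts were at 0 in the deletion library, against 1036 to 1684 in wild type. The deleted gene clr-2 (NCU08042), at supercontig 4, 4001190 to 4004631 counted from 1 in coordinates whose build is not stated, was listed at 0 in the clr-2 deletion, against 1521, 1122 and 1289.6 FPKM in wild type, and it was at 0 in the other 3 libraries of that strain too. The mating-type gene matA-1 and the pheromone gene ccg-4 were at 0 in the libraries of both deletion strains and not in wild type on Avicel at 4 h, which is taken up further on, and the labels give no mating type.

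Few genes differed, and most of those were lower in the clr-2 deletion. Of 8629 genes tested, 87 (1.01%) passed an adjusted p of 0.05 in limma, 78 of them lower (0.904%) and 9 higher (0.104%) in the deletion, and 374 had an unadjusted p under 0.05. The 78 genes together made up 0.258% of the summed FPKM in the clr-2 deletion, against 18.9%, 11.3% and 13.7% in wild-type replicates 1 to 3. Their median level was 25.8 FPKM in the deletion and 1389 FPKM in wild type, with a median log2 difference of -5.29 against 0.12 over all tested genes. The 78 were picked by this same difference, so their share and medians describe them and are not separate evidence. Single genes among them had wild-type means between 7.68 and 125860 FPKM. With the 12 of them that are listed at 0 in the deletion set to 12 reads, that median was -5.02. In 53 of the 78 the fitted difference was at least 16-fold. RNA of fewer hyphae and less RNA per hypha cannot be told apart in such bulk samples.

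**Figure D1:**
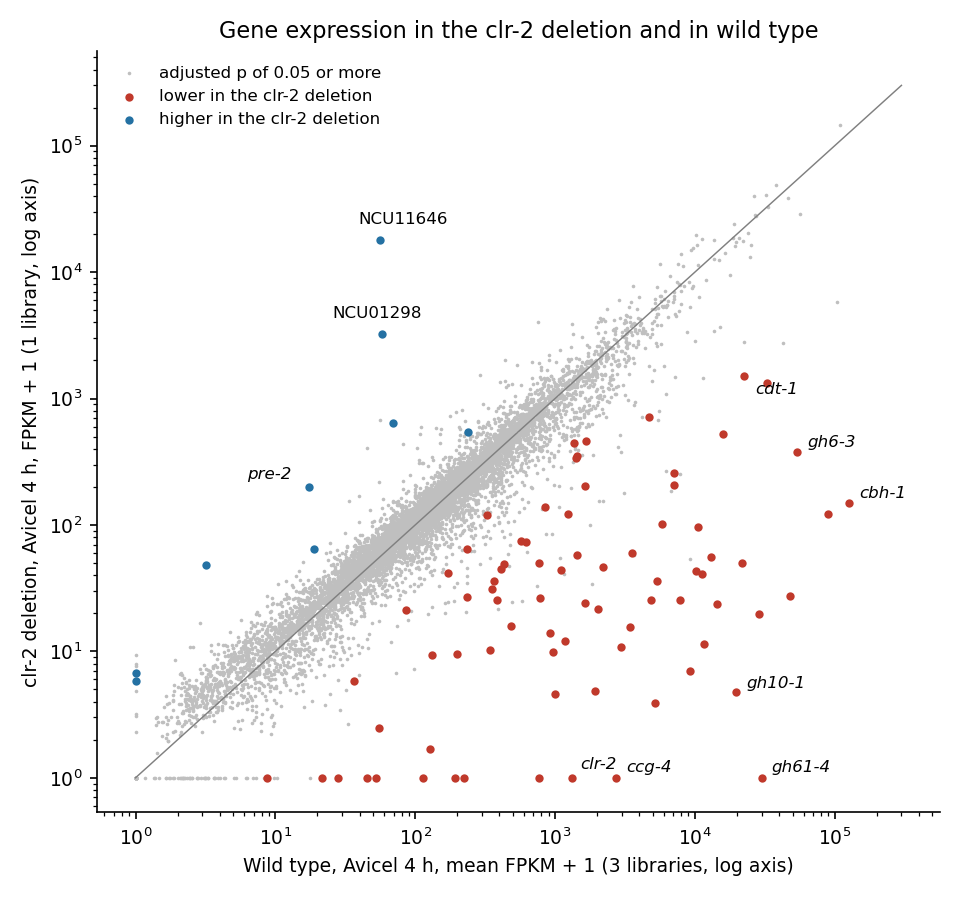
Every tested gene on Avicel at 4 h: FPKM + 1 of the clr-2 deletion library against the wild-type mean of 3 libraries, both on log axes, with the 78 lower genes in red and the 9 higher genes in blue. The lower genes reach a wild-type mean of 125864 FPKM (cbh-1), and those on the lowest row, gh61-4, ccg-4 and clr-2 among them, are listed at 0 in the deletion.

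The spread behind these tests came from wild-type groups of 3, and a single deletion library was taken to vary as they do. Where the 4 libraries were fitted alone, 3 genes passed (clr-2, NCU09968 and NCU11646), and 44 passed where the fit held only the Avicel and sucrose 4 h libraries of both strains. Calls that this fit lost include those of gh5-1, gh7-4, gh61-1, gh61-2, gh61-7, cdt-1, asd-1, aro-6 and matA-1. Without the libraries of 36- and 40-base reads, 194 genes passed, 179 lower and 15 higher, and all 87 were among them. Leaving out wild-type replicate 1 alone gave 84.

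Most of the cellulase genes were lower in the clr-2 deletion. Of 12 tested members, 8 were lower and none higher, and all 12 lay below the 3 wild-type libraries, as did 20.8% of all tested genes. Their median log2 difference was -5.67, against 0.12 over all tested genes. Together the 12 genes took 0.205% of the summed FPKM in the clr-2 deletion, against 10.7%, 6.94% and 8.32% in wild type.

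The main cellobiohydrolase gene cbh-1 (NCU07340), at supercontig 4, 4311049 to 4313881, stood at 149 FPKM in the clr-2 deletion, against 186620.0, 86756 and 104215 FPKM in wild type (log2 difference -9.63, SE 0.70, adjusted p = 2.1e-06). The deletion value lay 843-fold under the wild-type mean and far below the lowest wild-type library. The other cellobiohydrolase, gh6-2, had 122 FPKM in the clr-2 deletion, against 148857, 51927 and 69064 FPKM in wild type (log2 difference -9.37, SE 0.61, adjusted p = 8.0e-07). A second gene of glycoside hydrolase family 6, gh6-3, was also lower, with 379.7 FPKM in the deletion, against 81467, 33297 and 45431 FPKM in wild type (log2 difference -7.03, SE 0.63, adjusted p = 1.7e-05). Its level in the deletion library was above those of cbh-1 and gh6-2. In each of these genes wild-type replicate 1 was the highest library and the deletion was the lowest.

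Of the endoglucanase genes, gh5-1 and gh7-1 passed. The level of gh5-1 was 26.2 FPKM in the clr-2 deletion, against 68101, 32852 and 43671 FPKM in wild type (log2 difference -10.72, SE 1.24, adjusted p = 1.8e-04, or 0.0586 with 0.1 FPKM in place of 1 FPKM added before the log, where the call of gh5-1 is lost), and that of gh7-1 was 39.8 FPKM, against 17224, 7077 and 9207 FPKM (log2 difference -7.99, SE 0.63, adjusted p = 4.8e-06). The family 7 gene gh7-2 had 45.5 FPKM in the deletion, against 2757, 1543 and 2277 FPKM in wild type (log2 difference -5.52, SE 0.35, adjusted p = 7.6e-07). The weakly expressed gh7-4 was listed at 0 in the deletion, against 12.9, 4.62 and 5.54 FPKM in wild type (adjusted p = 0.0224), and its call was lost with 10 FPKM added before the log. The endoglucanase gh45-1 did not pass, with 24.1 FPKM in the deletion, against 1306, 158 and 277 FPKM in wild type (adjusted p = 0.607).

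The β-glucosidase members, whose enzymes split cellobiose to glucose, did not pass. They were gh1-1 with 2743 FPKM in the clr-2 deletion, against 33410.4, 43047 and 50743 FPKM in wild type (log2 difference -3.93, SE 1.495, adjusted p = 0.71), gh3-4 with 32.04 FPKM, against 1827, 189 and 224 FPKM (adjusted p = 0.173), and gh3-3 with 3354 FPKM, against 3441, 11177 and 11578 FPKM (adjusted p = 1.00). The deletion value was still the lowest of the 4 libraries in each. For gh3-3 the gap to the lowest wild-type library was small. Without the libraries of 36- and 40-base reads, gh1-1, gh3-4 and gh45-1 passed and gh3-3 did not.

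**Figure D2:**
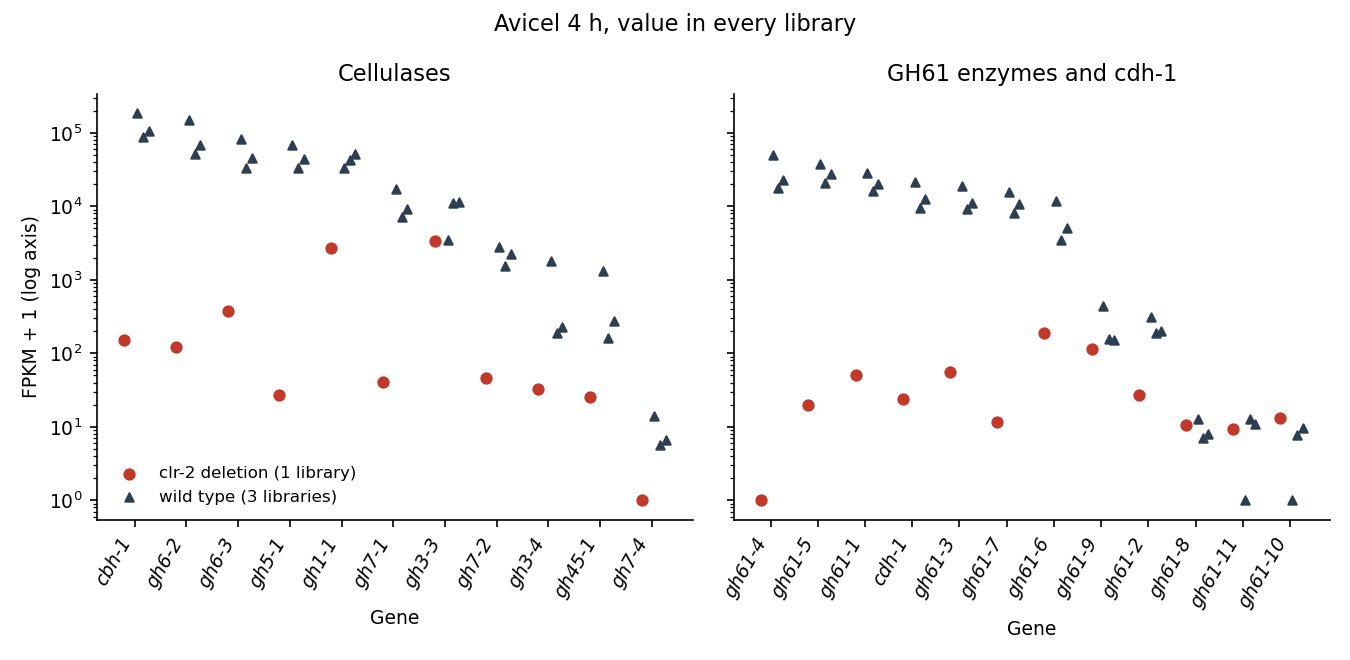
FPKM + 1 on a log axis in every Avicel 4 h library, for the cellulase genes with a symbol (left) and for the GH61 genes and cdh-1 (right); red circles are the clr-2 deletion and dark triangles the 3 wild-type libraries, replicates 1 to 3 from left to right. From cbh-1 to gh5-1 the deletion, at 26.2 to 379.7 FPKM, sits far under every wild-type library, while gh3-3 (3354 FPKM in the deletion, 3441 FPKM in wild-type replicate 1), gh61-9 and the 3 weakest GH61 genes lie close to wild type.

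Genes of oxidative cellulose breakdown formed the next group, the GH61 polysaccharide monooxygenases with cellobiose dehydrogenase, which can donate electrons to them. Of 15 tested members, 9 were lower and none higher, with a median log2 difference of -4.99. Below all wild-type libraries lay 11 of the 15, against 20.8% of all tested genes. The 7 most expressed members were all lower, whereas the members at no more than 11.9 FPKM in any wild-type library, gh61-8, gh61-10 and gh61-11, did not pass.

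The largest fitted fall of all tested genes was that of gh61-4 (NCU01050), at supercontig 5, 2769232 to 2770004, which was listed at 0 in the clr-2 deletion, against 49138, 17896 and 22868 FPKM in wild type (adjusted p = 1.2e-04). cdh-1 (NCU00206), which encodes cellobiose dehydrogenase, had 22.6 FPKM in the clr-2 deletion, against 21319.9, 9524 and 12497 FPKM in wild type (log2 difference -9.17, SE 0.41, adjusted p = 2.7e-08). All 3 wild-type libraries lay far above the deletion in both genes. In gh61-5, gh61-7, gh61-1 and gh61-3 the log2 differences were -10.45, -9.91, -8.71 and -7.79, with deletion levels of 18.8, 10.5, 49.1 and 54.8 FPKM and wild-type means ± SD of 28529.6 ± 8688, 11524 ± 3894, 21640.3 ± 6451 and 13013 ± 5224 FPKM (n = 3). The weaker gh61-2 was also lower, at 25.97 FPKM in the deletion, against 307, 189 and 199.8 FPKM in wild type (adjusted p = 0.00775, or 0.055 with voom on recovered reads). By contrast gh61-6 missed the threshold with a difference of -4.99 (186 FPKM, against 11893, 3428 and 5070.1 FPKM; adjusted p = 0.0865), and gh61-9 had 115 FPKM, against 442, 156 and 148 FPKM (adjusted p = 1.00).

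The hemicellulase list was divided. Of its 23 IDs, 22 were in the files and 21 were tested. Of the 21, 12 were lower, none was higher and 9 did not pass, with a median log2 difference of -4.36. The summed share was 2.42% of FPKM in the clr-2 deletion, against 5.30%, 5.62% and 6.37% in wild type, a smaller gap than for cellulases. Only 8 of the 21 have a symbol in the reference table, so most are named here by ID.

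The 4 most expressed xylanase genes with a symbol went different ways. The level of gh10-1 was 3.74 FPKM in the clr-2 deletion, against 30744, 12382 and 16236 FPKM in wild type (log2 difference -11.92, SE 1.14, adjusted p = 3.0e-05), and that of gh11-1 was 35.01 FPKM, against 9171, 3086 and 3815 FPKM (log2 difference -7.05, SE 1.24, adjusted p = 0.00923). The call of gh11-1 was lost with 0.1 FPKM added before the log (adjusted p = 0.538 in limma) and in the fit on the Avicel and sucrose 4 h libraries (adjusted p = 0.161). The deletion value was the lowest by far in both. In contrast, gh10-2 had 48631 FPKM in the clr-2 deletion, against 12303, 48359 and 53692 FPKM in wild type (log2 difference 0.62, SE 1.61, adjusted p = 1.00), and the deletion library lay inside the wild-type range. The most expressed of them, gh11-2, had 5807 FPKM in the clr-2 deletion, against 126366, 84185 and 103438 FPKM in wild type; that gap of -4.15 did not pass (adjusted p = 0.764), and the groups did not overlap.

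Among the hemicellulase IDs without a symbol, NCU08785 fell furthest, to 2.91 FPKM in the clr-2 deletion, against 9954, 2359 and 3324 FPKM in wild type (log2 difference -10.09, SE 0.98, adjusted p = 3.4e-05). NCU07326, NCU09664 and NCU03181 fell less far than NCU08785, with differences of -7.12, -6.99 and -6.39. The calls of NCU09664 and NCU03181 were lost with 0.1 FPKM added before the log. NCU05159 kept 1325 FPKM in the deletion, against 34712, 27982 and 35960.4 FPKM in wild type (log2 difference -4.62, SE 0.45, adjusted p = 3.2e-05). NCU01900, NCU09652 and NCU02343 stood at 7744, 3364 and 15017 FPKM in the deletion, against wild-type means of 9736 ± 5369, 3002 ± 1627 and 9312 ± 6344 FPKM (SD, n = 3), and none passed. These 3 were thus abundant transcripts in both strains. With 0.1 FPKM added before the log, 7 of the list passed in place of 12.

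Enzymes of xylose use downstream of xylan showed no call. None of 6 tested genes of pentose metabolism passed, and their median log2 difference was 0.38. The xylose reductase gene xr had 27882 FPKM in the clr-2 deletion, against 8539.9, 36991 and 37166 FPKM in wild type (adjusted p = 1.00), and the xylulokinase gene xyk-1 had 1798 FPKM in the clr-2 deletion, against 428, 1668 and 1594 FPKM in wild type (adjusted p = 1.00). In both, wild-type replicate 1 was the lowest library, and the deletion lay nearer to replicates 2 and 3 than replicate 1 did. Without replicate 1 the difference of xr turned to -0.41 and that of gh10-2 to -0.067, and neither passed.

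Of 7 tested pectin genes, 3 were lower, and 6 lay below all wild-type libraries, as did 20.8% of all tested genes. The rhamnogalacturonase gene asd-1 had 34.8 FPKM in the clr-2 deletion, against 496, 236 and 355 FPKM in wild type (log2 difference -3.28, SE 0.63, adjusted p = 0.0179). NCU08176 and NCU10045 had log2 differences of -5.99 and -2.86. The polygalacturonase genes gh28-1 and gh28-2 did not pass. Without wild-type replicate 1, or without replicate 3, 1 pectin gene passed.

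No starch gene passed among 7 tested. Glucoamylase gla-1 had 566 FPKM in the deletion, against 886, 349 and 173 FPKM in wild type, and gh13-1 had 8349 FPKM, against 8617, 9556 and 9080.0 FPKM. The starch list's median difference was 0.37.

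**Figure D3:**
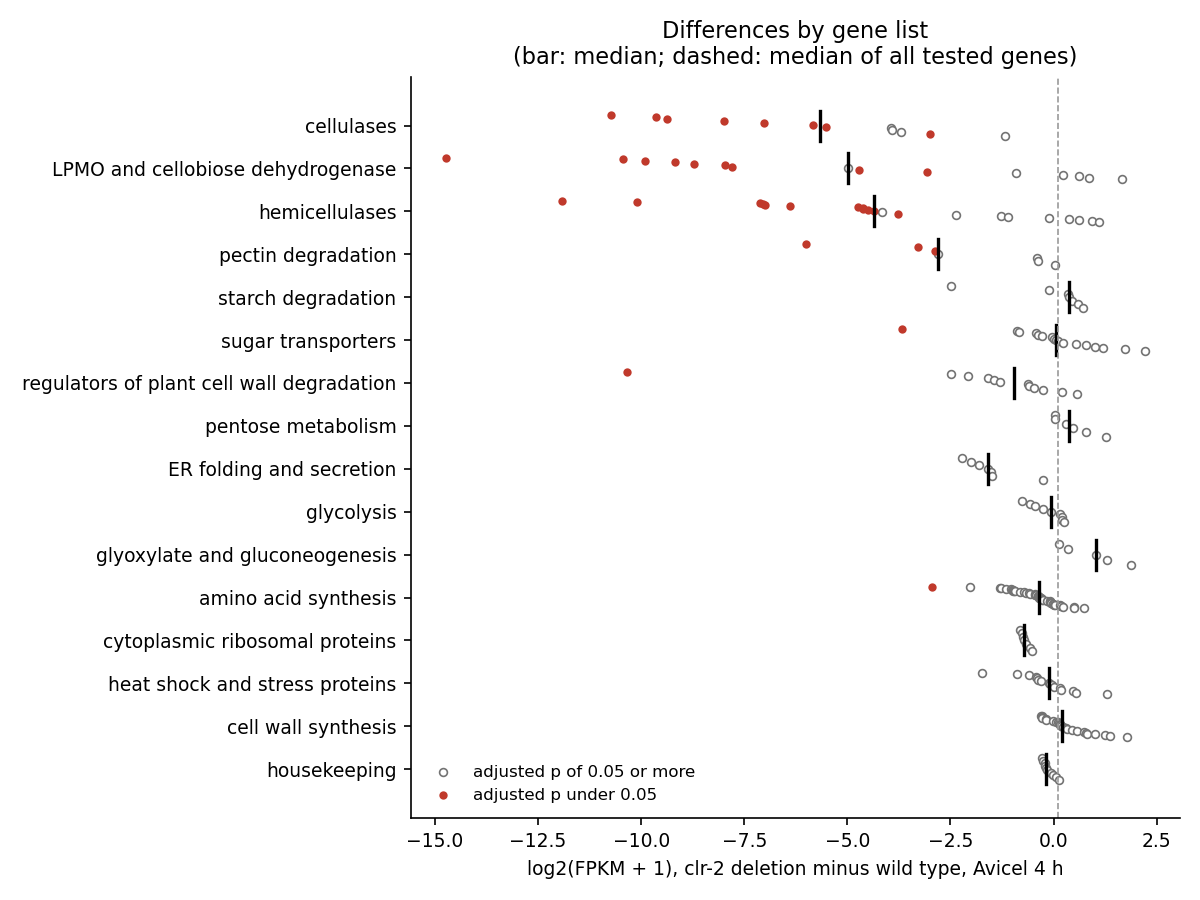
Log2 difference, clr-2 deletion minus wild type on Avicel at 4 h, for each tested gene of 16 lists; filled red points passed an adjusted p of 0.05, open points did not, the black bar is the list median and the dashed line the median of all tested genes at 0.12. The 3 uppermost lists have medians of -5.67, -4.99 and -4.36, and no other list shown lies under -3.

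Among 17 sugar transporter genes, 1 was lower and none higher, and the list's median of 0.07 lay near that of all genes. The call was cdt-1 (NCU00801), a cellodextrin transporter gene at supercontig 1, 7121829 to 7124065, with 1517 FPKM in the clr-2 deletion, against 41156, 12847 and 13786 FPKM in wild type (log2 difference -3.67, SE 0.69, adjusted p = 0.0166). The deletion retained a level well above that of wild type without carbon, 437 ± 257 FPKM (SD, n = 3). The other cellodextrin transporter, cdt-2, had 29032 FPKM in the clr-2 deletion, against 34039.6, 64599 and 70796 FPKM in wild type (log2 difference -0.89, SE 0.97, adjusted p = 1.00). The ranges of cdt-2 did not overlap, but replicate 1 came close to the deletion. Of the rest, NCU05853 had 16262 FPKM, against 8415, 32427 and 34915 FPKM, the glucose transporter gene hgt-1 had 6125 FPKM, against 4921, 5254 and 5466 FPKM, and NCU05897 had 2690.5 FPKM, against 14027, 1609.9 and 1522 FPKM. None of those 3 passed.

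Of 12 genes on the list of regulators of plant cell wall degradation, only clr-2 itself passed, and the median difference was -0.95. Below all wild-type libraries lay 8 of the 12, against 20.8% of all tested genes. The partner gene clr-1 (NCU07705) was still expressed, at 507 FPKM in the clr-2 deletion, against 519, 936 and 950.3 FPKM in wild type (log2 difference -0.61, SE 0.51, adjusted p = 1.00), with the deletion value just under the lowest wild-type library. The xylan regulator gene xlr-1 had 469 FPKM in the clr-2 deletion, against 984, 1183 and 1303 FPKM in wild type (log2 difference -1.29, SE 0.42, adjusted p = 0.423). vib-1, which encodes a p53-like transcription factor, had 315 FPKM, against 1184, 1362 and 1476 FPKM (adjusted p = 0.19). The carbon catabolite repressor gene cre-1 had 80.9 FPKM, against 699.5, 113 and 139.9 FPKM (adjusted p = 1.00), and col-26 had 416 FPKM, against 1476, 402 and 429 FPKM (adjusted p = 1.00). NCU05846 and NCU01856 showed differences of -2.49 and -1.59 (adjusted p = 0.335 and adjusted p = 0.219). The remaining NCU05414, NCU04295, NCU09033 and col-23 lay between -0.47 and 0.56. Without the libraries of short reads, NCU05846, vib-1 and xlr-1 passed beside clr-2, which made 4, and clr-1 did not (difference -0.90, adjusted p = 0.169).

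Genes of protein folding in the endoplasmic reticulum, through which secreted enzymes pass, lay below all wild-type libraries in 7 of 7 tested members, and none passed. Of all tested genes, 20.8% lay below all wild-type libraries. Their median log2 difference was -1.59. The chaperone gene grp78, the BiP of this fungus, had 3418 FPKM in the clr-2 deletion, against 15979, 11826 and 13257 FPKM in wild type (log2 difference -1.99, SE 0.59, adjusted p = 0.291). The other members named by their level, NCU09223, NCU09265, NCU00813 and NCU09485, had differences of -1.81, -1.59, -1.52 and -1.49, with adjusted p between 0.0984 and 0.598. Without the libraries of 36- and 40-base reads, 5 of the 7 passed. The summed share of the list was 0.276% of FPKM in the clr-2 deletion, against 0.725%, 0.717% and 0.804% in wild type, and 0.167% to 0.180% in wild type without carbon.

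In lists of central metabolism and housekeeping 1 gene passed, where 1.01% of all tested genes did (missing the threshold does not show that genes were equal). Of 47 amino acid synthesis genes 1 was lower, aro-6 (NCU05548), which encodes an enzyme at the entry to aromatic amino acid synthesis, with 72.6 FPKM in the clr-2 deletion, against 1003, 359.6 and 509 FPKM in wild type (log2 difference -2.95, SE 0.46, adjusted p = 0.00331). Without a call were the lists of 9 genes of glycolysis, 5 of the glyoxylate cycle and gluconeogenesis, 29 of respiratory complex I, 25 of the cytochrome chain and ATP synthase, 7 cytoplasmic ribosomal proteins, 16 heat shock and stress proteins, 26 of cell wall synthesis, 18 proton pumps, 17 of sulfur metabolism, 13 of light and clock, 7 of the quinic acid cluster and 10 housekeeping genes. Medians of these lists ranged from -0.71 for ribosomal proteins to 1.04 for the glyoxylate list. Among ribosomal genes wild-type replicate 1 stood alone: crp-10 had 601 FPKM in the clr-2 deletion, against 3275, 595 and 613 FPKM in wild type. Of 5 glyoxylate and gluconeogenesis genes, 3 lay above all wild-type libraries, as did 37% of all tested genes. The same held for 9 of 20 genes of conidia and conidiation, a list in which only ccg-4 passed. Below all wild-type libraries lay 25 of the 47 amino acid synthesis genes, with 5 above. In the cytochrome chain and ATP synthase list, 18 of 25 lay below and 5 above, while 20.8% of all tested genes lay below. After the data had been seen, lists of 20 peroxisome, 16 citric acid cycle, 17 proteasome and 21 mitochondrial import genes were added by symbol, and none of their genes passed. Of the 20 peroxisome genes, 14 lay above all wild-type libraries and 2 below, against 37% and 20.8% of all tested genes.

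The authors' own list of genes that differed at 4 h held 212 genes, of which 211 were tested, and 65 were lower and none higher. The study chose that list on these samples, so it is not independent evidence of direction. It covers 65 of the 78 lower genes. Of the 78, 36 are in the other lists above, and 25 have a symbol.

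Lower genes outside the enzyme lists included several with high wild-type levels. NCU11068, NCU01076, NCU09416, NCU09524 and NCU09764 have no symbol in the reference table. NCU11068 had 6.03 FPKM in the clr-2 deletion, against 13229, 6819 and 7659 FPKM in wild type (log2 difference -10.30, SE 1.27, adjusted p = 3.4e-04). NCU01076 was listed at 0 in the deletion, against 1390.4, 364 and 528 FPKM in wild type (adjusted p = 1.0e-06). NCU09416, NCU09524 and NCU09764 had differences of -8.22, -8.07 and -7.70, and these 3 calls were lost with 0.1 FPKM added. Voom on recovered reads lost that of NCU11068 (adjusted p = 0.0694). The family 3 glycoside hydrolase gene gh3-6 had 13.003 FPKM in the clr-2 deletion, against 984, 740.1 and 1023 FPKM in wild type (log2 difference -6.02, SE 0.50, adjusted p = 8.7e-06), and the family 2 gene gh2-1, on the hemicellulase list, had 56.9 FPKM in the clr-2 deletion, against 1271, 1450.3 and 1594 FPKM in wild type (log2 difference -4.63, SE 0.42, adjusted p = 1.9e-05). In both of these the 3 wild-type libraries lay close together and the deletion far below them. Over all 79 genes with a gh symbol, a list added after the data had been seen, 74 were tested and 17 were lower, with a median difference of -0.38.

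Some lower genes lie next to a far more abundant lower gene, and the library protocol keeps no strand. There were 8 pairs of neighbouring genes that both passed. NCU00763 ends 275 bases before gh5-1 and its wild-type mean was 0.264% of that of gh5-1. NCU05056 lies 292 bases from gh7-1 and had 0.241% of its level, NCU07339 lies 1332 bases from cbh-1 and had 0.157%, and NCU01049 lies 1638 bases from gh61-4 and had 0.171%. NCU08043, 2708 bases from clr-2, had 2.69% of the clr-2 level in wild type, with a difference of -2.61. Reads that run on from the abundant gene and transcripts of the neighbour cannot be told apart in such pairs.

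Of the 9 higher genes, 8 have no symbol in the reference table. NCU11646 had the largest rise, with 17854 FPKM in the clr-2 deletion, against 46.6, 59.8 and 57.8 FPKM in wild type (log2 difference 8.33, SE 1.38, adjusted p = 0.00621). The deletion value was 326-fold above the wild-type mean, and the 3 wild-type libraries were close to each other. The call of NCU11646 was lost with 0.1 FPKM added before the log (adjusted p = 0.382 in limma) and in the fit on the Avicel and sucrose 4 h libraries (adjusted p = 0.117). It was also higher elsewhere, with descriptive log2 differences of 6.66 (sucrose 1 h), 5.44 (sucrose 4 h) and 3.06 (Avicel 1 h). NCU01298 had 3210.5 FPKM in the clr-2 deletion, against 40.7, 60.6 and 69.3 FPKM in wild type (log2 difference 5.83, SE 0.48, adjusted p = 7.6e-06), and NCU09565 had 634 FPKM in the clr-2 deletion, against 89.7, 56.7 and 57.2 FPKM in wild type (log2 difference 3.24, SE 0.49, adjusted p = 0.00286). NCU02021 had 47.5 FPKM, against 0, 2.76 and 3.84 FPKM (adjusted p = 0.00778). NCU01837 and NCU00189 were listed at 0 in all 3 wild-type libraries, against 4.87 and 5.78 FPKM in the deletion, and both calls were lost with 10 FPKM added. NCU09443 and NCU05999 showed small rises, of 1.81 and 1.19. With 0.1 FPKM added the calls of NCU02021 and NCU09443 were lost too, and in the fit on the Avicel and sucrose 4 h libraries those of NCU02021, NCU09443 and NCU09565. The call of NCU05999 was lost on leaving out any one wild-type library. The one named gene was pre-2 (NCU05758), a pheromone receptor gene, with 198 FPKM in the clr-2 deletion, against 12.2, 16.8 and 20.6 FPKM in wild type (log2 difference 3.53, SE 0.39, adjusted p = 1.2e-04).

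The clr-1 deletion library on Avicel at 4 h had values like those of the clr-2 deletion for the same 9 genes except NCU00189: 8 of the 9 lay within a log2 difference of 1 between the deletion strains. How many of all tested genes lay that close was not counted. NCU11646 stood at 17854 FPKM in the clr-2 deletion and 18004 FPKM in the clr-1 deletion, NCU01298 at 3210.5 and 3280.3 FPKM, and pre-2 at 198 and 194 FPKM. In wild type without carbon at 4 h, NCU11646, NCU01298 and pre-2 were at 76.8 ± 19.5, 62.3 ± 18.9 and 17.3 ± 2.46 FPKM (SD, n = 3), so their high level in the deletions was not seen there.

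Several of the lower genes were low in every medium. In all 4 clr-2 deletion libraries, on Avicel and on sucrose, 5 genes were listed at 0 that were above 0 in all 18 wild-type libraries: clr-2, ccg-4, NCU09968, NCU09969 and NCU11930. No gene showed the opposite. NCU09968 and NCU09969 are neighbours on supercontig 6, with a gap of 446 bases, and had 178, 200.3 and 197 FPKM and 43.4, 44.3 and 45.1 FPKM in wild type on Avicel at 4 h. NCU11930, on supercontig 2, had 110.2, 118 and 109.7 FPKM there. In the clr-1 deletion strain the medians of these 3 genes over 4 libraries were 74.6, 17.4 and 45.5 FPKM, against 198, 43.9 and 110 FPKM over the wild-type libraries. NCU02061 also had at most 1.498 FPKM in every clr-2 deletion library and at most 0.988 FPKM in every clr-1 deletion library. The labels name no other change in these strains.

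Genes of mating type differed in the same way. ccg-4, which encodes the pheromone precursor of mating type A, was at 0 in the clr-2 deletion, against 1211, 3252 and 3709.8 FPKM in wild type (adjusted p = 1.6e-04). matA-1, a regulator gene of mating type A, was at 0 in the deletion, against 46.8, 283 and 337 FPKM in wild type (adjusted p = 0.0131, or 0.205 with voom on recovered reads). Both were at 0 in all 8 libraries of the deletion strains, while matA-1 was above 0 in 17 and ccg-4 in 18 of 18 wild-type libraries. The pheromone receptor gene pre-1 had 23.01 FPKM in the clr-2 deletion, against 19.03, 218 and 248 FPKM in wild type (adjusted p = 1.00), and passed, with a difference of -3.28, without the 36- and 40-base libraries. Of 6 genes on a mating list added after the data had been seen, 4 were tested, 2 were lower (ccg-4 and matA-1) and 1 was higher (pre-2), with a median of -4.74, or -4.06 with those at 0 set to 12 reads. On supercontig 1, between NCU02061 and matA-1 (1500621 to 1862088, 361 kb), 7 of 93 tested genes passed (7.53%): NCU02061, NCU02059, NCU02021, NCU02009, NCU02008, NCU01983 and matA-1. Both ends of this span are called genes, so it was drawn from the calls and its share is a description. Over the whole of supercontig 1, 22 of 2155 tested genes passed, and 1.01% of all tested genes did. What mating type contributes to the differences was not tested, since strain and genotype cannot be told apart.

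**Figure D4:**
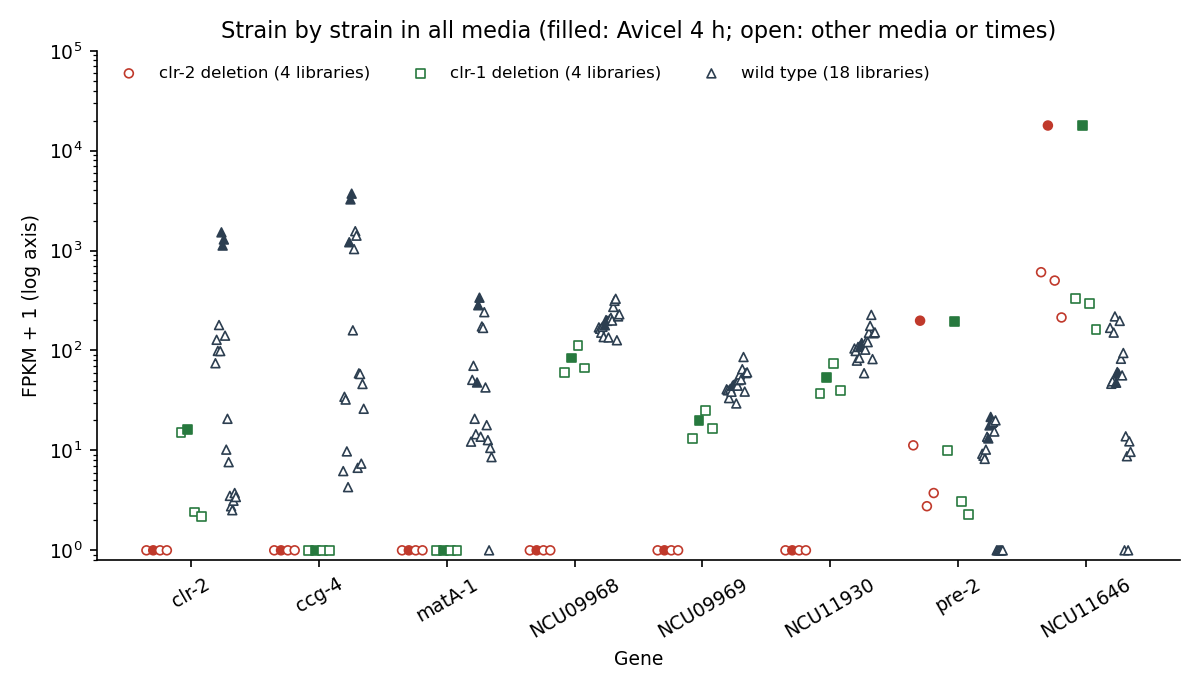
FPKM + 1 on a log axis for 8 genes in every library of the clr-2 deletion (red, 4 libraries), the clr-1 deletion (green, 4) and wild type (dark, 18); filled symbols are Avicel 4 h and open ones other media or times. ccg-4 and matA-1 are at 0 in both deletion strains in every medium, NCU09968, NCU09969 and NCU11930 only in the clr-2 deletion, and pre-2 and NCU11646 are highest in the deletions on Avicel at 4 h.

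The effect of the deletion was next set against its effect on sucrose at 4 h. Avicel differs from sucrose both in the cellulose present and in the sucrose withdrawn. The series holds no clr-2 deletion library without carbon, so these cannot be told apart. In 39 of 8629 genes (0.452%) the 2 effects differed, 38 of them with the more negative effect on Avicel (0.44%) and 1 with the more positive (0.0116%), and 334 had an unadjusted p under 0.05. Of the 39, 37 were among the 78 lower genes and 1 among the 9 higher; the exception is NCU07979, with a difference of -3.24 (SE 0.56, adjusted p = 0.015). The difference of effects was -13.43 (SE 2.27, adjusted p = 0.0128) for gh61-4, -10.82 (SE 1.61, adjusted p = 0.00475) for gh10-1, -9.82 (SE 1.54, adjusted p = 0.00708) for gh61-7, -9.46 (SE 0.85, adjusted p = 1.1e-04) for gh61-5 and -9.44 (SE 1.39, adjusted p = 0.00456) for NCU08785. These sizes depend on the added 1 FPKM where a level is at or near 0, most of all for gh61-4. On sucrose the clr-2 deletion had 6.86 FPKM of gh61-5, against 8.09, 25.7 and 14.8 FPKM in wild type, so all 4 libraries were low. The count was 16 with voom on recovered reads, 21 with 0.1 FPKM added and 59 with 10 FPKM added. Without the 36- and 40-base libraries it was 332, of which 247 had the more negative effect on Avicel and 85 the more positive. By list, 6 of 12 cellulases, 7 of 15 oxidative genes and 8 of 21 hemicellulases passed this test.

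Time on Avicel gave a like count. Between the effect at 4 h and the effect at 1 h, 38 genes differed (0.44%), 36 with the more negative effect at 4 h (0.417%) and 2 with the more positive (0.0232%), NCU01298 and pre-2. All 38 were among the 87. The difference was -9.18 (SE 0.99, adjusted p = 3.4e-04) for cbh-1, which on Avicel at 1 h had 118 FPKM in the clr-2 deletion, against 118, 190.2 and 189 FPKM in wild type. The largest differences besides were -12.04 (SE 2.27, adjusted p = 0.0332) for gh61-4, -10.57 (SE 1.61, adjusted p = 0.00818) for gh10-1, -9.38 (SE 1.76, adjusted p = 0.0332) for gh5-1 and -9.33 (SE 0.90, adjusted p = 2.0e-04) for NCU01076. cdt-1 did not pass, with 2138 FPKM in the deletion at 1 h, against 1679.6, 2708 and 2334 FPKM in wild type. These comparisons share the Avicel 4 h libraries. Without wild-type Avicel 4 h replicate 3, 22 genes passed in place of 38. With 0.1 FPKM added the count was 13, and without the 36- and 40-base libraries it was 94, 85 more negative at 4 h and 9 more positive.

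As a description of the 78 lower genes elsewhere, the median log2 difference between the clr-2 deletion and wild type was -0.12 (sucrose 1 h), -0.36 (sucrose 4 h), -0.42 (Avicel 1 h) and -5.29 (Avicel 4 h, where they were chosen). In wild type these genes made up 0.115% to 0.148% of the summed FPKM on sucrose at 4 h, against 11.3% to 18.9% on Avicel at 4 h. Small differences on sucrose therefore do not show that the deletion had no effect there. A gap of more than 1 on the log2 scale below wild type was present in 10 of the 78 on sucrose at 1 h, in 17 after 4 h of sucrose and in 22 on Avicel at 1 h. How many of all tested genes had such a gap was not counted, so these counts only describe the 78.

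**Figure D5:**
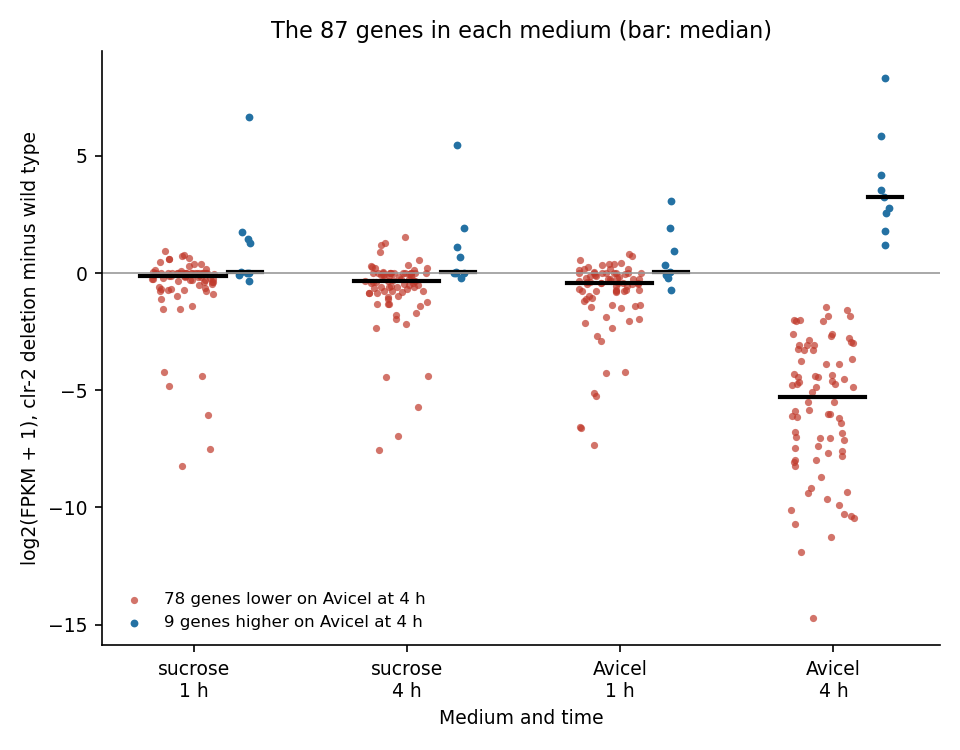
Log2 difference, clr-2 deletion minus wild type, of the 78 lower genes (red) and 9 higher genes (blue) in sucrose or Avicel medium, after 1 h or 4 h each; black bars are medians, and the genes were chosen on Avicel at 4 h. The median of the lower genes is -5.29 there and between -0.42 and -0.12 in the other 3, where a few strain-wide genes stay near -5 or under. In wild type on sucrose at 4 h the lower genes make up at most 0.148% of the summed FPKM.

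Set beside wild type that had no carbon source for 4 h, the clr-2 deletion on Avicel was not uniformly higher or lower. Of the 78 lower genes, 23 lay below the range of the 3 no-carbon libraries, 21 within it and 34 above it. The same split was not counted over all tested genes, so it only describes the 78. For cbh-1 the deletion had 149 FPKM, against 114 ± 9.76 FPKM in wild type without carbon (SD, n = 3), for gh6-2 122 FPKM, against 105 ± 13.1 FPKM, and for cdh-1 22.6 FPKM, against 21.2 ± 3.16 FPKM. Some stayed well above it: gh6-3 had 379.7 FPKM, against 99.5 ± 6.77 FPKM, NCU05159 1325 FPKM, against 134 ± 41.5 FPKM, and NCU04870 255 FPKM, against 5.87 ± 2.17 FPKM. Of the genes that did not pass, gh11-2, gh1-1 and gh10-2 in the deletion were at 5807, 2743 and 48631 FPKM, against 163 ± 53.3, 189 ± 26.7 and 288 ± 186 FPKM without carbon. All no-carbon libraries have reads of 51 bases, and medium and read length cannot be told apart there.

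The last comparison set the clr-2 deletion against the clr-1 deletion, 1 Avicel 4 h library each. In 5 genes (0.0579%) they differed, 4 lower (0.0464%) and 1 higher (0.0116%) in the clr-2 deletion, and 29 had an unadjusted p under 0.05. Without the 36- and 40-base libraries the count was 10, 6 lower and 4 higher. The 5 were the deleted genes and 3 genes at 0 in every clr-2 deletion library. clr-1 had 507 FPKM in the clr-2 deletion, against 11.01 FPKM in the clr-1 deletion (difference 5.40, SE 0.62, adjusted p = 0.00168), and clr-2 was at 0, against 15.1 FPKM (difference -4.01, SE 0.61, adjusted p = 0.027). NCU09968, NCU11930 and NCU09969 were at 0 in the clr-2 deletion, against 83.2, 52.4 and 19.1 FPKM in the clr-1 deletion, with fitted differences, which depend on the added 1 FPKM, of -6.40 (SE 0.38, adjusted p = 1.7e-06), -5.74 (SE 0.45, adjusted p = 3.0e-05) and -4.33 (SE 0.45, adjusted p = 6.8e-04). No cellulase, hemicellulase or oxidative gene passed, which does not show that they are equal. Of the 78 lower genes, 66 lay within a log2 difference of 1 between the strains. The share of all tested genes within that difference was not counted, so the 66 only describe this set. For cbh-1 the values were 149 FPKM in the clr-2 deletion and 168 FPKM in the clr-1 deletion, and for gh1-1 2743 and 751 FPKM. Other transcripts were higher in the clr-2 deletion without passing: gh3-3 had 3354 FPKM, against 461 FPKM in the clr-1 deletion (difference 2.86, SE 1.59, adjusted p = 1.00), gh6-3 had 379.7 FPKM, against 101 FPKM (difference 1.90, SE 0.77, adjusted p = 1.00), and cdt-2 had 29032 FPKM, against 13218 FPKM (difference 1.14, SE 1.18, adjusted p = 1.00). NCU11068 was lower there, at 6.03 FPKM, against 658 FPKM (difference -6.55, SE 1.55, adjusted p = 1.00).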

How the data were processed

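Polyadenylated RNA was made into unstranded libraries from fragmented, randomly primed and size-selected cDNA, per the labels' protocols. The authors aligned reads with TopHat and estimated FPKM with Cufflinks 0.9.3, per the submitters' processing notes, which also name HTSeq, edgeR and DESeq; the genome build is not given in the sources used here. The deposited FPKM of 9907 transcripts were summed to 9733 genes, 164 of them with more than 1 transcript. Coverage signal and effective length, both in the files the authors deposited, gave read lengths and read numbers, with 87.6% to 93.2% of low transcripts at whole reads within 0.02. The score column of the authors' deposited table of genes differing at 4 h served only to take up its gene list. Symbols came from the RefSeq gene table, which holds 9016 of the genes, 1106 with a symbol.

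The 8629 genes whose FPKM averaged 1 or more across the 26 libraries were tested on log2(FPKM + 1), a scale that understates changes of low genes, with limma 3.58.1 in R 4.3.3 (trended empirical Bayes, two-sided, Benjamini-Hochberg adjustment over all tested genes, threshold 0.05). The spread came from all 26 libraries in 16 groups, 5 of them triplicates, and the single deletion library was assumed to vary like the rest. The procedure was run on simulated data in which the deletion library varied like the others, so that run could not test this assumption. Named genes were the 15 largest falls and 10 largest rises (7 qualified) with 10 FPKM or more in a group and outside the wild-type range, the 5 most expressed of each list, and regulators; others were chosen after their values were seen. The members and gene lists were chosen with earlier results of these data known. In the authors' table of genes differing at 4 h, 4 columns of values per condition were not used. Coordinates are those of the files, counted from 1. Alternatives covered the added constant, the filter, rescaling, the trend, voom on recovered reads, and which libraries entered. The authors' own wild-type comparisons were not used here.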

Additional observations from a re-analysis of the deposited data

Results flagged for a closer look

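The effect of the clr-2 deletion differed between media and between times by a test of the difference itself. Between Avicel and sucrose at 4 h, 39 genes differed. The largest differences of effects on the log2 scale were -13.43 for gh61-4, -10.82 for gh10-1, -9.82 for gh61-7, -9.46 for gh61-5 and -9.44 for NCU08785, all more negative on Avicel. Between 4 h and 1 h on Avicel, 38 genes differed, with -12.04 for gh61-4, -10.57 for gh10-1, -9.38 for gh5-1, -9.33 for NCU01076 and -9.18 for cbh-1. Between the clr-2 and clr-1 deletions on Avicel at 4 h, 5 genes differed, with -6.40 for NCU09968, -5.74 for NCU11930, 5.40 for clr-1, -4.33 for NCU09969 and -4.01 for clr-2. Since clr-1 and clr-2 are the deleted genes, their differences follow from how the strains were made. NCU09968, NCU11930 and NCU09969 were at 0 in every clr-2 deletion library, on sucrose too, so their differences are not particular to Avicel. The fitted sizes for gh61-4, NCU01076, NCU09968, NCU11930, NCU09969 and clr-2, each listed at 0 in the clr-2 deletion, depend on the added 1 FPKM. Those of genes near 0 there, such as gh10-1 and NCU08785, depend on it too.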

How the results depend on the processing

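No paired analysis was possible, because the deletion strain gave a single library on Avicel at 4 h and no label pairs it with a wild-type library. Calls on Avicel at 4 h numbered 67 with 0.1 FPKM added, 107 with 10 FPKM, 101 without the filter, 77 with a mean of 10 FPKM, 91 after rescaling, 91 without the trend and 89 with voom on recovered reads (70 shared with the 87). Of the 87 genes, 50 passed under every alternative in which they were tested, leaving aside both fits on fewer groups given below. Without wild-type replicates in turn, the calls numbered 74 to 84. The counts by list were repeated, and genes at 0 set to 12 reads, after the data had been seen.

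Where counts moved by more than 1.5 times, the cause was not tested. With 0.1 FPKM added, 7 hemicellulase genes passed, the effect differed between media in 21 genes and between times in 13. With 10 FPKM added, 2 regulators passed, and the effect differed between media in 59. Voom gave 3 regulators and 16 genes by medium. Without the 36- and 40-base libraries, 194 genes passed on Avicel at 4 h, among them 1 starch gene, 4 regulators, 5 of endoplasmic reticulum folding, 3 of amino acid synthesis and 109 of the authors' list; 332 differed by medium, 94 by time and 10 between the deletions. With the 4 libraries alone 3 genes passed, 1 of them on the authors' list, and 0 in the lists of cellulases, oxidative genes, hemicellulases, pectin, transporters, conidia, amino acids, gh symbols and mating. With the Avicel and sucrose 4 h libraries, 44 passed: 4 oxidative genes, 5 hemicellulases, 1 pectin gene, 0 transporters, 2 regulators, 0 of amino acid synthesis, 34 of the authors' list and 10 with gh symbols. Leaving out a wild-type library gave 1 to 3 pectin genes, 35 to 43 genes by medium and 22 to 33 by time.

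Signs turned without the short-read libraries, and likewise without wild-type Avicel replicate 1, for NCU00891 (-0.29), NCU05897 (0.78), col-26 (0.0037), gh10-2 (-0.067) and xr (-0.41), none of which passed. Leaving out the Avicel wild-type libraries in turn gave -0.29 to 0.89 for NCU00891, -0.82 to 0.78 for NCU05897, -0.93 to 0.0037 for col-26, -0.067 to 1.00 for gh10-2 and -0.41 to 0.65 for xr. Depth limits low transcripts, since those under about 12 reads are listed at 0.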
